A study of Mus musculus with 3 samples.

Results

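Phase II conjugating enzymes attach a polar group to drugs, hormones, bile acids and the reactive products of cytochrome P450 reactions. Glutathione S-transferases (GSTs) add glutathione, UDP-glucuronosyltransferases (UGTs) add glucuronic acid and sulfotransferases (SULTs) add sulfate from the donor PAPS. Hepatocytes are a main site of all 3 reactions, and several of the genes are known to respond to the transcription factor NRF2 and to the nuclear receptors CAR and PXR.

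Genes were taken by symbol alone, as the cytosolic GST classes, the microsomal Mgst genes, the Ugt1a, Ugt2 and Ugt3 genes and the Sult genes. No measured values entered this rule, though earlier results of these data were known when it was set. The array held 81 probes for 59 such genes, of 20280 genes that could be named on it. RefSeq lists 67 symbols of this form, and the 8 with no matched probe were Sult2a5, Ugt2a2 and 6 Ugt1a genes. In all, 46 of the 59 were well above background on every array, 2 (Gsto2 and Sult2b1) on some arrays, and 11 on none. By enzyme type, 23 of 25 GST genes, 14 of 14 UGT genes and 9 of 20 SULT genes were measured on every array. The 11 unmeasured genes were Gstt4, Sult1c1, Sult3a1, Sult3a2, Sult6b1, Sult6b2 and the genes Sult2a1, Sult2a2, Sult2a3, Sult2a4 and Sult2a6.

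The study introduced human YAP, the transcriptional coactivator restrained by the Hippo pathway, into the liver of c57BL6/J mice (C57BL/6J in its methods), young adult males per its methods, by hydrodynamic injection. The 3 groups were liver with wild-type YAP (WT), with the active mutant 1SA and with the active mutant 2SA, all taken at 2 days, and each group was 1 array. Expression was driven in the pLIVE vector by an albumin promoter with an AFP enhancer, which is restricted to hepatocytes, and only part of the hepatocytes took up the vector, so each array measured a mixture of expressing and non-expressing cells. All 3 livers, WT included, carried the vector and had undergone the injection, and no liver without YAP was analysed here. With 1 array a group no test was possible: every difference below is between 2 livers or pools of livers, and construct and liver cannot be told apart. The labels do not say if the RNA came from single or pooled animals, and the title of the WT sample carried the number 2.

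Levels are given as normalised log2 intensity, where 0 is the 75th percentile of the array, and differences as log2 differences between arrays. The 75th percentile of spot intensity was 276 to 319, no spot was saturated, and 148 to 182 spots an array were marked as outliers and left out. Repeated spots of the same probe had an SD of 0.0747, so that a difference from single spots had a technical SD of 0.106, and 0.211 (2 such SDs) is used as a limit of spot noise. This limit holds no variation between animals. Among the hepatocyte markers, all 8 were measured, with a summed level of 4977 times the 75th percentile in WT, 5247 in 1SA and 4442 in 2SA. In bulk tissue, fewer cells of a type and less RNA per cell cannot be told apart.

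The enzymes were lower in 2SA liver than in 1SA liver across nearly the whole set, by small amounts. Of the 46 measured genes, 42 had the lower value in 2SA (91.3%, against 54.4% of all 13623 measured genes), and the median difference was -0.31 against -0.03 over all genes. In 29 of the 46 the difference passed the limit of spot noise in this direction, against 23.6% of all genes. The lower values were found in 22 of 23 GSTs, 13 of 14 UGTs and 7 of 9 SULTs. At the level of single probes, 59 of the 64 measured probes were lower in 2SA. With the deposited value table, whose scaling constants differ between arrays, the share was 80.4% of the enzymes against 42.6% of all genes.

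The sets of larger differences were short. A fall of at least 1.5-fold in 2SA relative to 1SA was reached by 6 genes (Gstm3, Gstm4, Sult1e1, Ugt2a1, Ugt2b35 and Ugt2b37), where 4.57% of all genes passed that limit, and a rise of that size by 0 genes, where 7% of all genes passed it. A 2-fold fall was reached by Ugt2a1 alone, with 1.12% of all genes past it. A 2-fold rise in that comparison was reached by 0 genes (2.47% of all genes). Relative to WT 0 of the 46 genes differed 2-fold in either direction, against 0.727% of all genes higher and 1.14% lower in 1SA and 1.12% higher and 0.543% lower in 2SA.

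**Figure D1:**
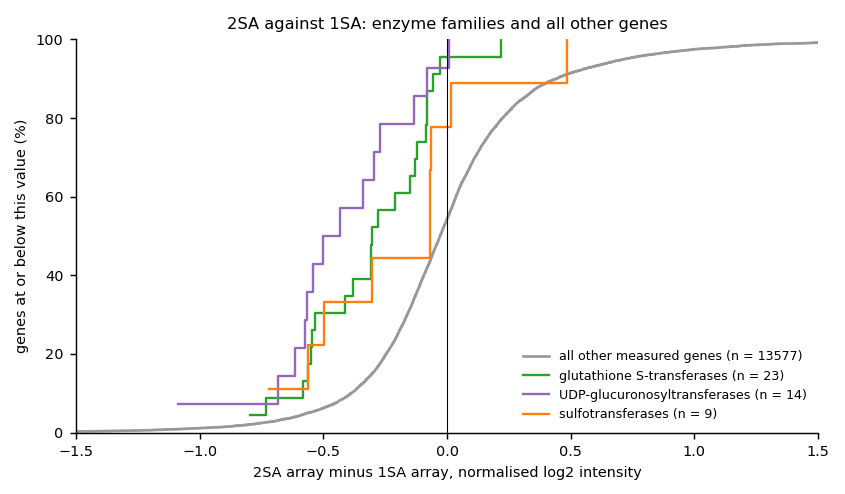
Cumulative share of genes (y axis, percent) at or below a given 2SA minus 1SA difference in normalised log2 intensity (x axis) for GSTs (n = 23), UGTs (n = 14), SULTs (n = 9) and all other measured genes (n = 13577), 1 array a group. The curves of the 3 enzyme types lie left of the curve of other genes through most of their length, and that of the UGTs lies furthest left at its median of -0.47.

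Relative to WT, the enzymes were mostly higher in 1SA and mostly lower in 2SA, many by less than the limit of spot noise. In 1SA liver 36 of 46 genes were higher than in WT (49.7% of all genes were), with a median difference of 0.17 against -0.0017 over all genes, and 10 were lower (15 with quantile normalisation). In 2SA liver 32 of 46 genes were lower than in WT (56.4% of all genes were), with a median of -0.12 against -0.03. The limit of spot noise was passed by 22 of 46 upward and 2 downward in 1SA. In 2SA it was passed by 11 downward and 4 upward. The share of all genes past this limit is not given for these comparisons, so the counts stand without a background. Over all genes the lower and upper quartiles of the difference from WT were -0.15 and 0.13 in 1SA and -0.16 and 0.11 in 2SA. The 1SA and 2SA differences from WT share the WT array, and the 2 comparisons are set side by side only. In 23 of the 46 genes the arrays stood in the order 1SA, WT, 2SA from high to low, an order held by 26.1% of all genes, and in 0 genes did they stand in the order WT, 2SA, 1SA, held by 14.4% of all genes.

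**Figure D2:**
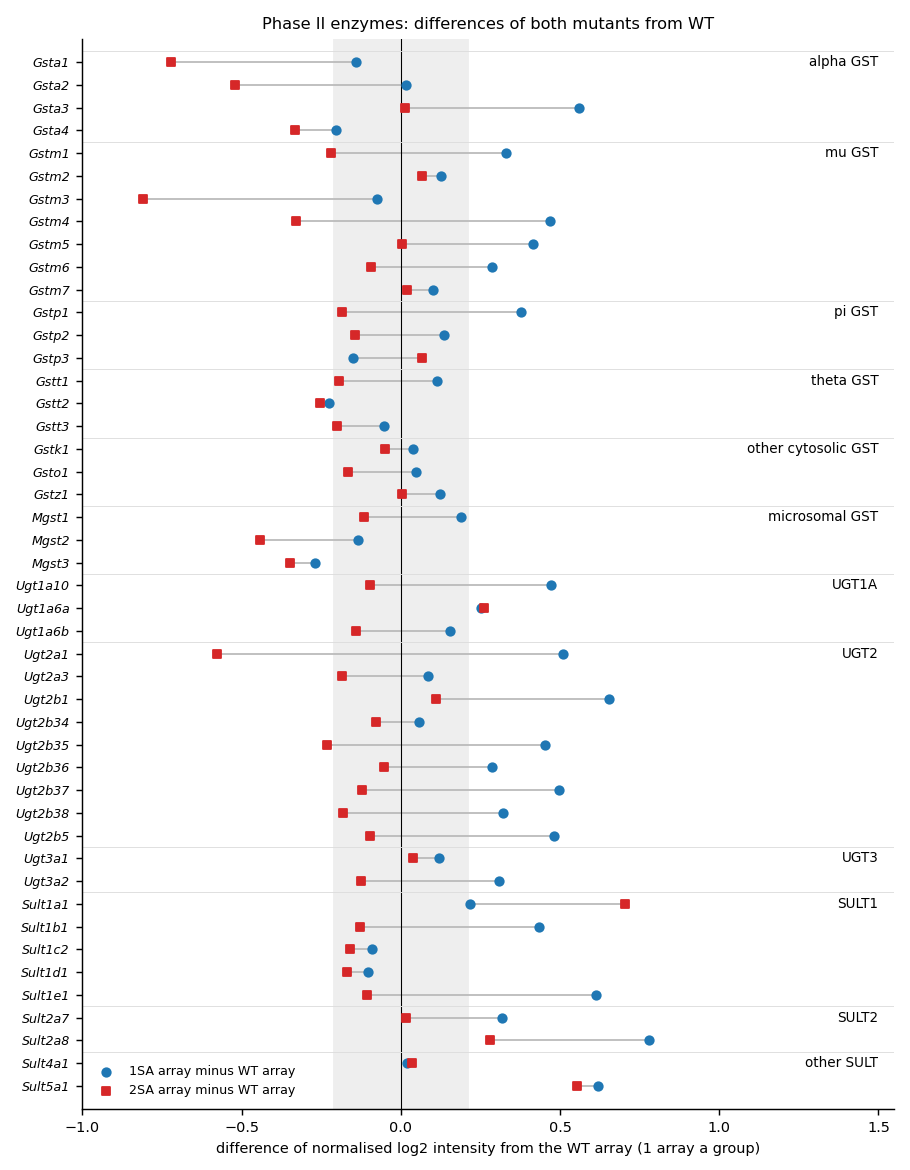
Difference from the WT array in normalised log2 intensity (x axis) for each of the 46 measured enzymes (y axis, by family), with circles for 1SA minus WT, squares for 2SA minus WT and the shaded band for the limit of spot noise of 0.21. The circle lies right of the square in 42 genes, and the exceptions are Gstp3, Ugt1a6a, Sult1a1 and Sult4a1.

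The amount of this shift differed with the brightness of a gene, and the brightest genes of the array moved in the same direction as the enzymes. Bands of mean level were set after the data were seen. Among the 720 genes above 64 times the 75th percentile, 80.7% were lower in 2SA than in 1SA, with a median of -0.15. The 21 enzymes in that band had a median of -0.50, and 20 of them were lower. From 8 to 64 times the percentile, 61% of 2553 genes were lower with a median of -0.05, and all 14 enzymes of that band were lower with a median of -0.21. From 1 to 8 times the percentile, 5 of 6 enzymes were lower with a median of -0.07, against 52.6% of all genes. Below the percentile, 3 of 5 enzymes were lower with a median of -0.31, against 49.4% of all genes. For 2SA against WT, 71.5% of all genes in the brightest band were lower (median -0.06) and 16 of 21 enzymes were (76.2%, median -0.14). For 1SA against WT, 547 of 720 genes of that band were higher (median 0.09) and 19 of 21 enzymes were (median 0.19). Quantile normalisation, which gives all arrays 1 distribution, brought the median of the 46 genes from -0.31 to -0.21, and 39 of 46 were then lower. The part of this brightness trend in the shifts of the enzymes was not tested.

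Several members lie side by side in the genome as near copies, and the windows around their transcription starts were compared. Sequences are printed for the sets whose windows were most alike. The printed bases lie before the start and are not part of the RNA. They cannot show if a probe takes up RNA of more than 1 copy. Windows of RefSeq (build GRCm38.p6, 250 bases before to 50 after a start) existed for 51 of the 59 genes. Over 129 pairs of windows from the same family, the median identity was 50.7%, and 5 pairs exceeded 70%. The 5 pairs were Ugt2b37 with Ugt2b38 (87.3%), Ugt2b5 with Ugt2b38 (84.2%), Gstp1 with Gstp2 (77.1%), Ugt2b5 with Ugt2b37 (76.5%) and Gsta1 with Gsta2 (75.3%). The 100 bases before the start follow, 5′ to 3′, with the longest run shared by the set in capitals.

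The alpha-class pair lies on chromosome 9, Gsta1 on the plus strand at chr9:78230569-78230668 and Gsta2 on the minus strand at chr9:78347146-78347245, and shares 15 bases.
Gsta1: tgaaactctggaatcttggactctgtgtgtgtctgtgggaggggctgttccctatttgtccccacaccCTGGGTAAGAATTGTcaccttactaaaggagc
Gsta2: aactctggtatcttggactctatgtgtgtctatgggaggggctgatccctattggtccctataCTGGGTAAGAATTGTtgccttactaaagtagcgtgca

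The pi-class pair lies on the minus strand of chromosome 19, Gstp1 at chr19:4037913-4038012 and Gstp2 at chr19:4042222-4042321, and shares 31 bases.
Gstp1: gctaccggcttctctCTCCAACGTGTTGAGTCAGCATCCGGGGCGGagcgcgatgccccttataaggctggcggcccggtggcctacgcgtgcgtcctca
Gstp2: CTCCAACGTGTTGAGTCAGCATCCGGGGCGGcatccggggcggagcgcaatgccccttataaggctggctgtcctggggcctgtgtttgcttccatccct

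The Ugt2b trio lies on the minus strand of chromosome 5, Ugt2b5 at chr5:87140341-87140440, Ugt2b37 at chr5:87254789-87254888 and Ugt2b38 at chr5:87424204-87424303, and shares 62 bases.
Ugt2b5: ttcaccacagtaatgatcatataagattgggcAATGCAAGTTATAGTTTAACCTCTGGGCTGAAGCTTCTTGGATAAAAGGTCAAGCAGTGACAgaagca
Ugt2b37: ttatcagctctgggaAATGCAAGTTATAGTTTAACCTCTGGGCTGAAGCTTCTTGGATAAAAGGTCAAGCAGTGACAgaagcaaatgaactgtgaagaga
Ugt2b38: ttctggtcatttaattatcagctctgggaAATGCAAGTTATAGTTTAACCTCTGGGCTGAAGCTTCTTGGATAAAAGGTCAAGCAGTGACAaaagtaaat

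Between 2SA and 1SA the trio differed by -0.58 (Ugt2b5), -0.62 (Ugt2b37) and -0.50 (Ugt2b38), and the alpha pair by -0.58 (Gsta1) and -0.54 (Gsta2). The pi pair differed by -0.56 (Gstp1) and -0.28 (Gstp2). Probe sequences were not analysed here, so values of such copies may not be independent of each other.

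Alpha-class GSTs, which also reduce lipid hydroperoxides, were all lower in 2SA than in 1SA, with a median of -0.54. Gsta1 (NM_008181) had a level of 8.31 in WT, 8.17 in 1SA and 7.58 in 2SA. It was the only alpha gene that fell by at least 1.5-fold in 2SA relative to WT (-0.72, a 1.65-fold fall), and at -0.58 its difference from 1SA lay just short of that limit. Gsta2 followed with 8.07, 8.09 and 7.55. Gsta3, which conjugates the epoxide of aflatoxin in mice, had 8.63 in WT, 9.19 in 1SA and 8.64 in 2SA, so that the 1SA array stood above the other 2 arrays, which lay 0.01 apart. Gsta4, specialised for the lipid peroxidation product 4-hydroxynonenal, had 3.34, 3.13 and 3.0. Its probe was spotted 10 times an array, and its differences were -0.20 (1SA from WT), -0.33 (2SA from WT) and -0.13 (2SA from 1SA) with standard errors over spots of 0.019, 0.022 and 0.019. These errors cover the spots of 1 array and not the animals.

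The mu class, a cluster of cytosolic enzymes with broad activity toward electrophiles, was lower in 2SA than in 1SA in 7 of 7 genes, and its members differed widely among themselves. Gstm4 (NM_026764) had 6.09 in WT, 6.56 in 1SA and 5.76 in 2SA, a fall of 1.74-fold from 1SA to 2SA. Gstm3 (NM_010359) had 7.97, 7.89 and 7.16, with 2SA far below both other arrays. Gstm3 fell by 0.81 relative to WT and by 0.73 relative to 1SA on the log2 scale. The fall relative to WT was -0.52 with normexp background correction and -0.54 at the second probe of the gene, both under the 1.5-fold limit. Its 2 probes gave 1SA minus WT differences of -0.08 and 0.20, so no direction is given for that comparison, and agreed closely for 2SA minus 1SA (-0.73 and -0.75).

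Gstm1 had 9.08, 9.42 and 8.86, and its second probe repeated the order with 2SA minus 1SA at -0.73 beside -0.55. Gstm2 and Gstm7 lay within spot noise in all comparisons. Gstm2 had 6.39, 6.51 and 6.45 with 2SA minus 1SA differences of -0.06, -0.08 and -0.09 at its 3 probes, and for Gstm7 the difference was -0.08. With quantile normalisation the Gstm2 difference turned to 0.07, and with the deposited value table to 0.02. Gstm5 and Gstm6 lay between these groups at -0.41 and -0.38.

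Pi-class genes did not move together. Gstp1 (NM_013541) had 8.57 in WT, 8.95 in 1SA and 8.38 in 2SA, and Gstp2 had 9.15, 9.29 and 9.01. The second probe of Gstp2 gave -0.60 for 2SA minus 1SA, near the -0.56 and -0.60 of the Gstp1 probes, while its brightest probe gave -0.28. Gstp3 had 1.63, 1.47 and 1.69. Of the 23 GST genes measured on every array it was the only one with 2SA above 1SA, a difference of 0.22 that was just beyond spot noise.

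The remaining cytosolic GSTs differed little. Gstt1 of the theta class had 7.36 in WT, 7.47 in 1SA and 7.16 in 2SA. Gstt2 had 4.38, 4.15 and 4.12, and was the theta gene with the largest difference of 1SA from WT, -0.23. Gsto1, a thioltransferase of the omega class, had 6.13, 6.18 and 5.96, and Gstz1, which works in tyrosine breakdown as maleylacetoacetate isomerase, had 7.23, 7.36 and 7.24. With quantile normalisation the median of Gstk1, Gsto1 and Gstz1 for 2SA minus 1SA turned from -0.12 to 0.01. Gsto2 was well above background in WT and 2SA but not in 1SA. Its bound was at least 1.40-fold higher in WT and at least 1.25-fold higher in 2SA than in 1SA, values chosen for mention after they were seen.

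Of the membrane-bound microsomal GSTs, Mgst1, an abundant liver enzyme of the endoplasmic reticulum, had 9.03 in WT, 9.22 in 1SA and 8.91 in 2SA. Mgst2, which can also form leukotriene C4, had -0.97, -1.10 and -1.41. Mgst3 had 3.26, 2.99 and 2.91. Relative to WT all 3 were lower in 2SA, with a median of -0.35, and Mgst2 and Mgst3 passed the limit of spot noise. The 1SA minus WT difference of the dim Mgst2 turned from -0.13 to 0.11 with normexp background correction.

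UGTs had the most uniform pattern of the 3 enzyme types. Each of the 14 had a 1SA value above WT (49.7% of all genes did), with a median difference of 0.31. Lower in 2SA than in WT were 11 of 14 (56.4% of all genes were), with a median of -0.11. Only 2 of 14 passed the limit of spot noise in that direction, and no share of all genes past it is given. These 11 include Ugt1a6b and Ugt3a2, whose probes had opposite signs for 2SA minus WT. The order 1SA, WT, 2SA was held by 11 of 14 (26.1% of all genes). The UGT2 genes, which glucuronidate steroids, bile acids and drugs, held this order in 8 of 9. For 2SA below 1SA 8 of 9 passed the limit of spot noise (23.6% of all genes did).

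Ugt2a1 (NM_053184), best known from the olfactory epithelium, had the largest difference of all 46 genes and a very low level. It had -2.24 in WT, -1.73 in 1SA and -2.82 in 2SA, which gave a 2.13-fold fall from 1SA to 2SA. With normexp background correction the difference was -0.62, above 1.5-fold but below 2-fold. Ugt2b35 (NM_172881) had 4.85, 5.31 and 4.62, a fall of 1.61-fold from 1SA to 2SA, and its 2 probes gave -0.69 and -0.57. Ugt2b37 (NM_053215) had 6.08, 6.58 and 5.96, a fall of 1.53-fold. That call was lost with quantile normalisation (-0.48), with normexp (-0.58) and with the deposited value table (-0.54).

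Ugt2b1 (NM_152811) was the UGT2 gene outside the common order. It had 4.60 in WT, 5.25 in 1SA and 4.71 in 2SA, a rise of 1.57-fold in 1SA relative to WT, with 2SA close to WT. The other members Ugt2b5, Ugt2b36 and Ugt2b38 had 2SA minus 1SA differences of -0.58, -0.34 and -0.50. Ugt2a3 and Ugt2b34 were the least different, at -0.27 and -0.13.

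Ugt1a genes share their last exons and differ in the first, and the values of the 3 measured here were not alike. Probe sequences were not analysed, so a value may include RNA of other Ugt1a genes. Ugt1a10 had 1.36 in WT, 1.83 in 1SA and 1.26 in 2SA. Ugt1a6b, of the subfamily that conjugates planar phenols, had 8.17, 8.32 and 8.03. Its close copy Ugt1a6a, at a low level, had -1.80, -1.55 and -1.54, so that both mutants lay above WT and 0.01 apart. A second Ugt1a10 probe had an intensity of 962 on the 1SA array against 76.2 on WT and 71.6 on 2SA, but this single spot was marked as an outlier and was not used. The second Ugt1a6b probe had a WT level of 2.82, far below the 8.17 of the brighter. It was higher in 2SA than in WT by 0.14 where the brighter was at -0.14, so no direction is given for that comparison.

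The UGT3 genes use sugar donors other than glucuronic acid. Ugt3a1 had 3.13, 3.25 and 3.17, within spot noise throughout. Ugt3a2 had 5.21 in WT, 5.51 in 1SA and 5.08 in 2SA, with 2SA minus 1SA at -0.43 and -0.37 on its 2 probes.

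SULTs spanned the widest range between 2SA and 1SA, from -0.72 to 0.49, and included the largest opposite case. Sult1a1 (NM_133670), the main phenol sulfotransferase, had 6.57 in WT, 6.79 in 1SA and 7.28 in 2SA. It rose by 0.70 in 2SA relative to WT, the only gene of the 46 with a 1.5-fold rise in that comparison, where 3.79% of all genes passed the limit. Its second probe repeated the order, with differences from WT of 0.19 in 1SA and 0.76 in 2SA. The difference between 2SA and 1SA was 0.49 (0.56 at the second probe), and it passed 1.5-fold only with quantile normalisation, at 0.61.

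Sult1e1 (NM_023135), the oestrogen sulfotransferase, had a low signal, with -2.96 in WT, -2.34 in 1SA and -3.06 in 2SA. It rose 1.53-fold in 1SA relative to WT and fell 1.65-fold from 1SA to 2SA, and both calls were lost with normexp background correction (0.34 and -0.42), the first also with the deposited value table (0.57). Sult1b1, which sulfates thyroid hormones, had 3.11, 3.54 and 2.98. Sult1d1, an enzyme for catecholamines, had 3.40, 3.30 and 3.23, and Sult1c2 had 1.62, 1.53 and 1.46. The dimmer Sult1d1 probe had a 1SA minus WT difference of 0.14 against -0.10 for the brighter.

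Sult2a8 (NM_175250), a bile acid sulfotransferase of mouse liver, had 5.87 in WT, 6.65 in 1SA and 6.15 in 2SA. Its rise of 1.72-fold in 1SA was the largest of the 46 genes relative to WT, and 2SA lay between the other arrays. Sult2a7, the other measured gene of its family, had 0.14, 0.46 and 0.16. Sult2b1, which acts on cholesterol and other sterols, was above background in 2SA alone, with a bound of at least 1.11-fold over WT and at least 1.29-fold over 1SA, chosen for mention after the values were seen.

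Sult5a1 (NM_020564) was higher in both mutants, with 0.48 in WT, 1.10 in 1SA and 1.04 in 2SA. It rose 1.53-fold in 1SA relative to WT, a call lost with normexp (0.49) and with the deposited value table (0.57). Sult4a1, a largely neuronal member, had -0.62, -0.60 and -0.58, a spread within spot noise. Its second probe was well above background on no array, with intensities of 3.52, 2.95 and 2.84 against 190, 182 and 214 at the probe used.

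Over all 46 genes, 4 thus rose at least 1.5-fold in 1SA relative to WT (Sult1e1, Sult2a8, Sult5a1 and Ugt2b1) where 3.08% of all genes did, and 0 fell where 4.68% of all genes did. In 2SA relative to WT 2 fell (Gsta1 and Gstm3) where 3.02% of all genes did. At this limit the 1SA rises were in SULT and UGT genes, and the 2SA falls in GST genes. Gsta3 at 0.56 in 1SA and Ugt2a1 at -0.58 in 2SA lay just short of it. The second Gstm3 probe, at -0.54 in 2SA, did not pass it. With normexp 2 genes rose in 1SA and 1 fell in 2SA by that much. Whether the families differ in this was not tested.

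**Figure D3:**
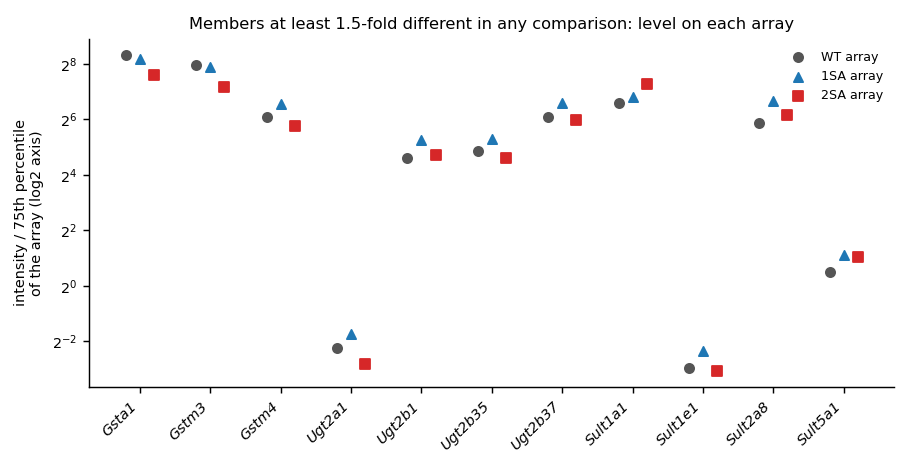
Intensity divided by the 75th percentile of the array (y axis, log2 scale) for the 11 enzymes that differed at least 1.5-fold in any comparison (x axis), with 1 point for each array. Sult1a1 is highest in 2SA, Gsta1 and Gstm3 are highest in WT, and the other 8 are highest in 1SA, where Sult5a1 has 2SA close below. Points are those of the brightest probe, and the second probe of Gstm3 was highest in 1SA.

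Agreement between probes of the same gene gave a measure of the error within an array. Of the 46 genes, 16 had several measured probes, and for 2SA minus 1SA the probes of 0 of these 16 genes disagreed in sign, with a median spread of 0.08. For 1SA minus WT 2 genes (Gstm3 and Sult1d1) and for 2SA minus WT 3 genes (Gstm7, Ugt1a6b and Ugt3a2) had probes of opposite sign. In no comparison did probes of a gene differ by more than 0.5.

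**Figure D4:**
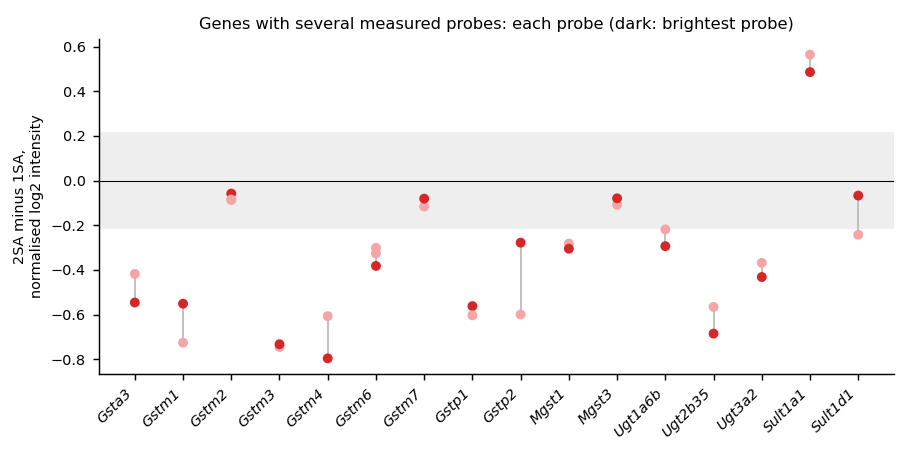
2SA minus 1SA difference in normalised log2 intensity (y axis) at each measured probe of the 16 enzymes with several measured probes (x axis), with the brightest probe dark and the limit of spot noise of 0.21 shaded. Probes of a gene lie on 1 side of 0 in all 16 genes, and Sult1a1 is the only gene above 0.

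The companion genes that supply or follow these reactions were set beside them, and their counts are to be read against the 54.4% of all genes that were lower in 2SA than in 1SA and the median of -0.03. Of the 10 measured genes of glutathione supply and use, 6 were lower in 2SA than in 1SA with a median of -0.15. Gclc, the catalytic subunit of the rate-limiting step of glutathione synthesis, was at -0.19, and its partner Gclm at -0.37. Chac1, which degrades glutathione, rose 1.23 on the log2 scale in 1SA relative to WT and stood at -0.72 in 2SA relative to 1SA.

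In the supply of UDP-glucuronate 4 of 6 genes were lower in 2SA than in 1SA, with a median of -0.35. Ugdh, which makes UDP-glucuronic acid, differed from WT by 0.15 in 1SA and by -0.42 in 2SA, and its 2SA minus 1SA difference of -0.57 lay just short of 1.5-fold. For PAPS, 3 of 5 genes were lower with a median of -0.11, and the synthases Papss1 and Papss2 stood at 0.29 and -0.12. The methyl, acetyl and acyl transferases, the other phase II enzymes, were lower in 9 of 12 genes, with a median of -0.21 and 0 genes past 1.5-fold.

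Among 10 hydrolases and reductases, 9 were lower in 2SA than in 1SA with a median of -0.28. Cbr3, a carbonyl reductase, fell by 1.84 and the quinone reductase Nqo1 by 0.86, and relative to WT Cbr1 fell by 0.69 and Por, the electron donor of P450 enzymes, by 0.90 in 2SA. Of 14 carriers, 9 were lower in 2SA than in 1SA with a median of -0.28. Abcc2, which exports conjugates into bile, fell by 0.69, while the dim carriers Abcb1a and Abcc1 rose by 0.86 and 0.80. The uptake carrier Slco1a1 rose by 1.03 in 1SA and by 0.60 in 2SA relative to WT, Slco1a4 fell by 0.59 in 1SA, and Abcb1b rose by 0.60 in 2SA.

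In the list of 17 measured NRF2 targets outside the enzymes, which shares 9 measured genes with the lists above, 15 were lower in 2SA than in 1SA with a median of -0.37. Srxn1, which repairs oxidised peroxiredoxins, fell by 1.39 and malic enzyme Me1 by 0.77, whereas the haem oxygenase Hmox1 rose by 0.67. Nfe2l2, which encodes NRF2, stood at 0.49. Of 18 regulators, 11 were lower in 2SA than in 1SA and 7 higher, with a median of -0.17. Nr1i3 (which encodes CAR), Foxa3, Foxa2 and Ahr fell by 0.79, 0.84, 0.70 and 0.69, and Nr1i2 (which encodes PXR) stood at 0.31. Of 7 measured P450 and other targets of CAR, PXR and AhR, 3 were lower in 2SA than in 1SA with a median of 0.24, and Cyp2b10 and Cyp3a11 stood at 0.24 and 0.40, higher in 2SA, after falls of 0.95 and 0.60 in 1SA relative to WT. Cyp2c55 fell by 1.23 in 1SA and by 0.84 in 2SA relative to WT, Cyp1a1 fell by 0.81 from 1SA to 2SA, and the stress gene Gadd45b rose by 2.13. In 1SA relative to WT, 5 of the 7 were lower (median -0.57), while Cyp1a2 and Tiparp rose by 0.76 and 0.64.

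**Figure D5:**
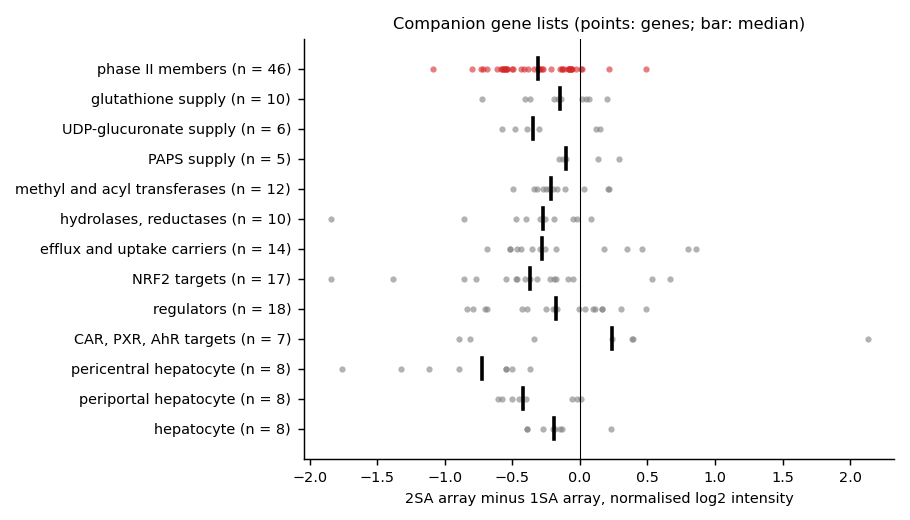
2SA minus 1SA difference in normalised log2 intensity (x axis) of each measured gene (points) with the median (bar) for the 46 enzymes and 12 companion and hepatocyte lists (y axis), 1 array a group. Medians run from -0.72 for pericentral hepatocyte markers to -0.11 for PAPS supply, and that of the CAR, PXR and AhR targets lies above 0 at 0.24.

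Markers of hepatocytes and their zones were also mostly lower in 2SA than in 1SA, against 54.4% of all genes. All 8 hepatocyte markers lie in the brightest band of genes, where 80.7% of all genes were lower with a median of -0.15. Between 2SA and 1SA, 7 of 8 hepatocyte markers were lower (median -0.19), 8 of 8 pericentral markers (median -0.72, summed level 593 in WT, 722 in 1SA and 506 in 2SA) and 7 of 8 periportal markers (median -0.42, summed level 1462, 1783 and 1349). The pericentral markers Lgr5, Axin2, Slc1a2 and Cyp1a2 fell by 1.76, 1.33, 1.12 and 0.89. Of these Lgr5 and Axin2 were dim. In WT, 1SA and 2SA Lgr5 had intensities of 99.0, 210 and 71.9 and Axin2 of 34.7, 46.0 and 21.3. Kupffer cell markers were lower in 5 of 8 (median -0.40) and bile duct markers higher in 5 of 6 (median 0.78, summed level 13.2, 4.37 and 10.9). Most of the bile duct sum came from Spp1, with intensities of 3536, 1009 and 3132 in WT, 1SA and 2SA. The next brightest, Krt19, had 134, 71.9 and 140. Of liver genes with a male bias 6 of 8 were lower in 2SA (median -0.25), and of those with a female bias 1 of 4 (median 0.50). Stellate cell markers were lower in 4 of 4, erythroid in 3 of 3, sinusoidal endothelial in 3 of 6 and neutrophil and monocyte markers in 1 of 4. The part of any of these shifts in that of the phase II enzymes was not tested.

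Motifs were searched on both strands of the 63 windows of 51 enzymes, with the share of all 32851 windows beside them. The antioxidant response element core TGACNNNGC, bound by NRF2, was in 6.35% of the windows (Gsta3, Gstm5, Gstm7 and Mgst1) against 12.4% of all. The xenobiotic response element core GCGTG, bound by the Ah receptor, was in 19.0% against 32.4%, including Gsta1, Gsta2 and Gstp1. GGAATG, the motif of the TEAD partners of YAP, was in 17.5% against 14.7%, in 11 genes that included Sult1a1, Sult1e1 and Gstm2. The HNF1 motif was in 0 of the 63 and in 3 of all windows. Its exact letters were too rare for that 0 to bear on HNF1 sites in these genes. These letters are descriptions of short windows and not binding sites.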

How the data were processed

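The authors labelled liver RNA with Cy3, hybridised 3 one-colour Agilent mouse arrays and processed the scans with Feature Extraction 10.10.1.1 (design on mm9). Per the file headers, spot intensity is linear and background-subtracted. The deposited value table holds the same intensity values times a constant for each array (3.02, 3.08 and 2.81). Here intensities were divided by the 75th percentile of non-control spots of the array and log2 transformed, outlier spots were left out, and spots of a probe were averaged. Probes were measured where at least 50% of spots were well above background, and a gene took its brightest probe measured on all 3 arrays. Accessions were matched to RefSeq symbols, with 26756 of 55681 probes named. Members named were those at least 1.5-fold different, with the largest rise or fall of their family, with a bound of at least 2-fold or with disagreeing probes, plus others for their class; companions were named at 1.5-fold or as key enzymes of a step. Members and lists were chosen with earlier results of these data known, and counts of direction were added after seeing the data. Alternatives were other scalings, filters and probe rules and normexp (limma 3.58.1, R 4.3.3, offset 50), run on median spot brightness. Python 3.11.15 was used otherwise. The scripts were tested on simulated data. The number of arrays limits the precision.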

Additional observations from a re-analysis of the deposited data

How the results depend on the processing

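No alternative turned the sign of a difference that was itself at least 1.5-fold. Of the recomputed values 80 moved and 1234 stayed. Moved means by over 0.106 (1 SD of a difference between spots) or by over 1.5 times for a count, and the cause was not tested. Many of the values that stayed could not move. Scaling to the array median and the deposited values shifted all differences of a comparison by 1 constant, at most 0.035 and 0.076. No paired analysis was possible because the groups have single arrays and so share fewer than 2 replicate numbers. Leaving out a replicate could not be done with 1 array a group, and slide could not be a block because all arrays lay on 1 slide. Outlier spots kept moved 0 values. Leaving out saturated spots could move none, because no spot was saturated.

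With quantile normalisation the medians for 1SA minus WT were 0.18 (mu) and -0.00957 (pi), and for 2SA minus 1SA -0.38 (alpha), -0.040 (pi), -0.0112 (theta), 0.012 (other cytosolic), -0.11 (microsomal), -0.10 (UGT1A) and -0.43 (UGT2), with 1 member at least 1.5-fold higher. With normexp the medians were 0.11 (microsomal) and 0.29 (UGT2) for 1SA minus WT and -0.20 (microsomal) for 2SA minus WT. Normexp left 2 members 1.5-fold higher in 1SA than WT, 1 lower in 2SA than WT and 0 lower by 2-fold in 2SA than 1SA. With the deposited values 2 members were 1.5-fold higher in 1SA than WT and 9 higher in 2SA than 1SA, and 42.6% of all genes were lower in 2SA than 1SA. Scaling to the array median left 2 members higher in 2SA than 1SA.

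Without the filter on dim probes, 1 member fell by 1.5-fold and 1 by 2-fold in 1SA against WT, and 22 were lower. In 2SA against WT 2 members rose by 1.5-fold or more, 1 rose by 2-fold and 1 fell by 2-fold. In 2SA against 1SA 2 were at least 1.5-fold higher and 8 were higher. The medians of SULT1, SULT2 and other SULTs for 1SA minus WT were 0.063, -0.21 and -0.19, those of SULT2 and other SULTs -0.22 and -0.31 for 2SA minus WT and -0.28 and -0.16 for 2SA minus 1SA. With only probes above the median signal, the medians were 0.063 (SULT1) and 0.62 (other SULTs) for 1SA minus WT, -0.23 (microsomal) and 0.55 (other SULTs) for 2SA minus WT, and -0.19 (microsomal) and -0.43 (UGT1A) for 2SA minus 1SA, with 0 members 2-fold lower and 2 higher. The mean of all probes gave pi medians of 0.29 (1SA minus WT) and -0.44 (2SA minus 1SA). At a 3-fold limit 0 members were lower in 2SA than 1SA.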
